A study of Mus musculus with 8 samples.

Results

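The genes described here make bile acids from cholesterol, move them through the hepatocyte and hold their synthesis in check through the bile acid receptor FXR, and all 10 of them were on the array and passed the filter on dim signal. They were taken by gene name: Cyp7a1, Cyp8b1, Cyp27a1, Cyp7b1, Baat, Slc27a5, Slc10a1, Abcb11, Nr0b2 and Nr1h4, among 17565 genes tested and 36666 gene names on the array. Total RNA was measured in livers of male mice aged 80 weeks (4 samples) and 8 weeks (4 samples), all of them collected 8 h after acetaminophen, a pain reliever that in overdose damages hepatocytes through a reactive product. Each sample was hybridised to a single-colour Agilent array. The sources used here give neither strain nor dose and do not say that every array came from its own animal. The p-values therefore cover only sample-to-sample spread, part of which may be technical. With untreated livers not analysed here, age differences present before the drug and those that followed it cannot be told apart.

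Bile acids are made in hepatocytes by a classical route, opened by the hydroxylase Cyp7a1, and an alternative route, opened by Cyp27a1 and continued by Cyp7b1. Cyp8b1 adds the hydroxyl group that makes cholic acid, Slc27a5 and Baat join the products to taurine or glycine, Abcb11 pumps the conjugates into bile, and Slc10a1 takes them back up from portal blood. FXR, the product of Nr1h4, is activated by bile acids and induces Nr0b2 (SHP), a corepressor that lowers Cyp7a1 and Cyp8b1, and it also induces Abcb11.

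A total of 15 probes of 60 bases measured these genes, and 14 of them gave signal well above background on 4 or more of the 8 arrays. The probe sequences of 4 genes are shown because the results turn on them: the tested probe for Cyp7a1, the most variable of the 10, and both probes for Cyp7b1, for Slc10a1 and for Nr1h4. They are written 5′ to 3′ as the array files give them, all in lower case, with their positions on build mm9 and their strand.
Cyp7a1, A_52_P84027, chr4:6193456-6193515, minus strand: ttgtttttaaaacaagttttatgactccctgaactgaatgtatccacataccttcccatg
Cyp7b1, A_51_P461429, chr3:17972286-17972345, minus strand: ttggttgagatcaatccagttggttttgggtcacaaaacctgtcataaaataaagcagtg
Cyp7b1, A_55_P2515744, joined across chr3:17972720-17996548, minus strand: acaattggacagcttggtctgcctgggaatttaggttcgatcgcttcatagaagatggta
Slc10a1, A_55_P1954987, chr12:82056539-82056598, minus strand: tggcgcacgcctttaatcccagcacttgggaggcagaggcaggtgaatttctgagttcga
Slc10a1, A_66_P133814, chr12:82054180-82054239, minus strand: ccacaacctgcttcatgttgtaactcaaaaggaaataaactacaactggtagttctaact
Nr1h4, A_55_P2369474, chr10:88917222-88917281, minus strand: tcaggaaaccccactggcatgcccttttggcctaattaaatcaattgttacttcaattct
Nr1h4, A_55_P2731821, chr10:88960160-88960219, minus strand: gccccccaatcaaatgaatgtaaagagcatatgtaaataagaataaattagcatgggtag
The first Slc10a1 probe carries the sequence of the B1 element, a short interspersed repeat found in many mouse transcripts. It shared an exact run of 20 bases with 2 other probes of the array, each under another gene name, and with 3 of 32851 promoter windows, whereas the other 14 probes of these genes shared such a run with no other probe and no window. The array files list Gen1, Lrrc31 and Spc24 among its targets too. Its signal therefore cannot be read as Slc10a1 alone, and Slc10a1 is described below from its second probe as well.

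Levels are given as log2 intensity with the 75th percentile of the same array set to 0, so 0 is the level that 75% of the array's probes lie below, and differences are 80-week minus 8-week with a 95% interval. A gene stands by its brightest tested probe. The array of 8-week replicate 2 and, less so, that of 8-week replicate 1 stood apart from the other 6. On the first principal component over all tested genes, with 49.1% of the variance, the 80-week arrays lay between 17.0 and 47.5 and the 8-week arrays at -61.3, -99.2, 10.2 and 12.3 for replicates 1 to 4. Differences are therefore also given without 8-week replicates 1 and 2, a setting that leaves 2 arrays on that side. All 8 arrays shared 1 slide and 1 scan, with the 80-week samples in row 2 and the 8-week samples in row 1, so slide row and age cannot be told apart. Between 43.3% and 50.4% of probes per array were well above background and no spot was saturated.

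None of the 10 genes passed the threshold of 0.05 on the limma adjusted p (lmFit and eBayes, Benjamini-Hochberg over all tested genes), where the background was 0.359% of tested genes called in either direction. At an unadjusted p under 0.05 the count was 2, Cyp7b1 and Cyp8b1, against a background of 14.1% in either direction and 7.91% among genes higher in 80-week livers. The groups did not overlap in 1 gene, Cyp7b1, against a background of 8.38% in either direction and 4.62% higher in 80-week livers. All 10 differences were positive, as were 52% of all tested genes, and their median was 0.44 against 0.02 over all tested genes. Without 8-week replicates 1 and 2, 3 of the 10 differences were positive, as were 42.5% of all tested genes. Their median was then -0.18, against -0.06 over all tested genes. The array of 8-week replicate 2 gave the lowest of the 8 values in 9 of the 10 genes, and over all tested genes it gave the lowest value in 35.1%. The low level there was not particular to the bile acid genes. The mean log2 level of 10 hepatocyte markers was 8.02 on that array. It was 8.65 to 9.37 on the 80-week arrays and 8.82, 9.12 and 9.18 in 8-week replicates 1, 3 and 4.

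**Figure D1:**
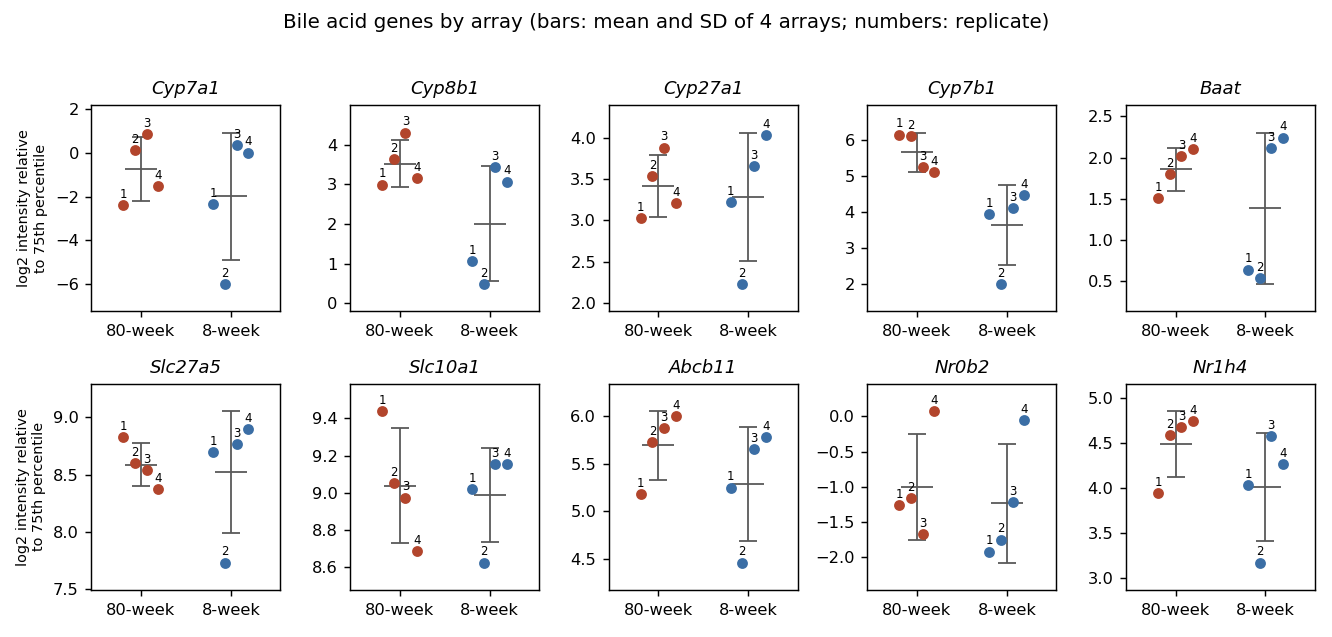
Level of each bile acid gene on each array (log2 intensity relative to the array's 75th percentile), with 80-week samples on the left and 8-week samples on the right, points numbered by replicate, and bars for the mean and SD of 4 arrays. Only the Cyp7b1 groups do not overlap, with 80-week arrays at 5.13 to 6.16 and 8-week arrays at 2.01 to 4.48, and 8-week replicate 2 is the lowest point in every panel except Nr0b2. The Slc10a1 panel shows the probe that carries the B1 repeat.

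Cyp7b1, the oxysterol hydroxylase of the alternative route, had the lowest p of the 10 genes. It read 6.16, 6.12, 5.26 and 5.13 in 80-week livers (replicates 1 to 4), against 3.96, 2.01, 4.12 and 4.48 in 8-week livers. Every 80-week value lay above every 8-week value, and 8-week replicate 2 lay well below the other 3 of its group. The means were 5.67 ± 0.55 in 80-week and 3.64 ± 1.11 in 8-week livers (SD, n = 4 each), a 4.07-fold ratio (95% interval 1.82 to 9.11) and a log2 difference of 2.03 (SE 0.52, limma adjusted p = 0.173). The second Cyp7b1 probe, which spans a junction, read 3.80, 3.75, 2.70 and 2.70 in 80-week livers against 1.76, -0.34, 1.68 and 2.17 in 8-week livers. Its groups did not overlap either, and its log2 difference was 1.92 (SE 0.53, limma adjusted p = 0.22). By neither probe did the groups overlap, and 8-week replicate 2 was the lowest by both. Both probes read the same 8 samples, so the second is not independent support. Without 8-week replicates 1 and 2 the difference of the brighter probe was 1.37 (interval 0.51 to 2.22, limma adjusted p = 0.348), and that of the second was 1.31. Cyp27a1, the sterol hydroxylase that supplies Cyp7b1 with substrate, did not follow that pattern. It ranged from 3.03 to 3.89 in 80-week livers and from 2.23 to 4.04 in 8-week livers, with a log2 difference of 0.13 (SE 0.38, limma adjusted p = 0.889) and of -0.43 without the pair of 8-week arrays. The interval of its difference, -0.72 to 0.98, does not show that the ages were alike.

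Cyp7a1, the rate-limiting enzyme of the classical route, varied widely between samples of the same age. It read -2.39, 0.12, 0.83 and -1.54 in 80-week livers, against -2.33, -5.99, 0.33 and 0.01 in 8-week livers. The groups overlapped, with high and low samples at both ages. The probe was well above background on all 4 of the 80-week arrays and on 3 of the 4 8-week arrays, the exception being 8-week replicate 2. Its value there lay below -3.86, the lowest signal well above background on that array, so its exact level and the spread of the 8-week group were not measured. The SD in 80-week livers was 1.48, above that of 99.2% of tested genes, and the samples spread over 3.22 log2 units in 80-week livers and over 2.66 in the other 3 8-week livers. The age difference was 1.25 (SE 1.31, limma adjusted p = 0.669), with an interval of -1.70 to 4.20. Without 8-week replicate 2 alone the difference was -0.08, and without both 8-week replicates 1 and 2 it was -0.91 (interval -3.00 to 1.17), so the sign of the difference turned with the array whose signal was not above background. The second Cyp7a1 probe, for another transcript, was well above background on 1 of the 4 80-week arrays and on 0 of the 4 8-week arrays and was not tested.

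Cyp8b1, which sets the share of cholic acid, read 2.99, 3.64, 4.30 and 3.15 in 80-week livers, against 1.06, 0.48, 3.43 and 3.07 in 8-week livers. The groups overlapped: 8-week replicates 1 and 2 were below every 80-week sample, and replicates 3 and 4 lay within the 80-week range. The means were 3.52 ± 0.59 in 80-week and 2.01 ± 1.46 in 8-week livers (SD, n = 4 each). The log2 difference was 1.51 (SE 0.65, unadjusted p = 0.043 and limma adjusted p = 0.347), and it was 0.27 (interval -0.64 to 1.18) without 8-week replicates 1 and 2.

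**Figure D2:**
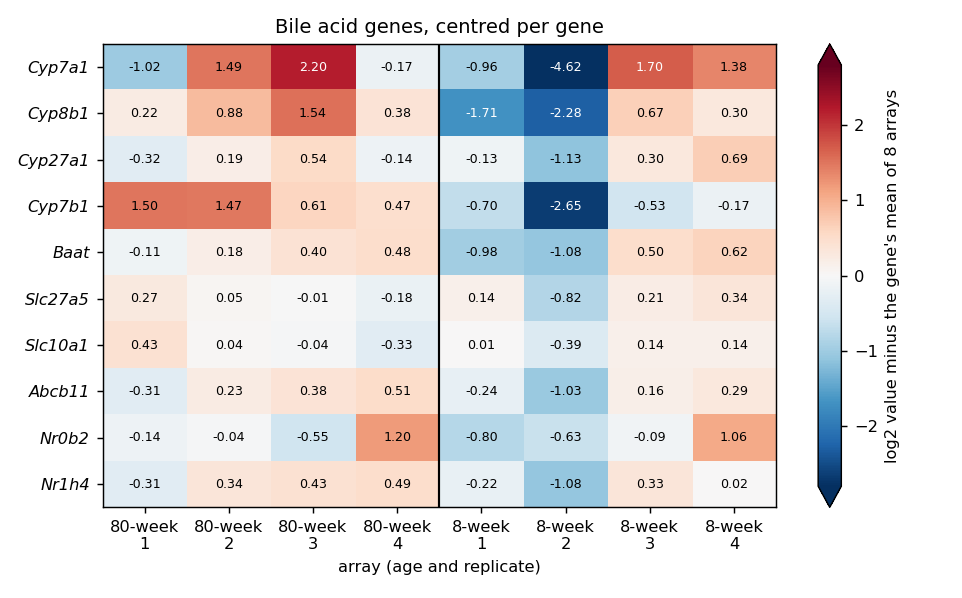
The log2 value of each bile acid gene (rows) on each array (columns, with the 80-week replicates left of the line and the 8-week replicates right of it) minus that gene's mean over the 8 arrays, as colour and number. The column of 8-week replicate 2 is the lowest in 9 of 10 rows, with a median of -1.08, and that of 8-week replicate 1 has a median of -0.47.

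Of the conjugating enzymes, Baat showed the same split within the 8-week group as Cyp8b1. Baat, which joins bile acids to taurine or glycine, read 1.51, 1.80, 2.02 and 2.10 in 80-week livers, against 0.64, 0.54, 2.12 and 2.24 in 8-week livers. Replicates 1 and 2 of the 8-week group were the lowest of the 8, and replicates 3 and 4 were the highest. The log2 difference was 0.47 (SE 0.41, limma adjusted p = 0.604), and it was -0.32 without 8-week replicates 1 and 2. The second Baat probe ordered the 8-week samples the same way and gave 0.68 (SE 0.43, limma adjusted p = 0.468), and -0.14 without 8-week replicates 1 and 2. Slc27a5, the ligase that activates bile acids with coenzyme A before Baat acts, ranged from 8.37 to 8.82 in 80-week livers and from 7.73 to 8.89 in 8-week livers. Its log2 difference was 0.06 (SE 0.27, limma adjusted p = 0.929), with an interval of -0.55 to 0.67.

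Both transporters overlapped between the ages. Abcb11, the bile salt export pump and an FXR target, read 5.18, 5.73, 5.88 and 6.002 in 80-week livers, against 5.25, 4.46, 5.65 and 5.78 in 8-week livers. The low value of 8-week replicate 2 set it apart from the other 7 samples. The log2 difference was 0.41 (SE 0.32, limma adjusted p = 0.555) and -0.02 (interval -0.63 to 0.58) without 8-week replicates 1 and 2. Slc10a1 (NTCP), the sodium-coupled uptake carrier, read 6.69, 6.23, 6.45 and 6.47 in 80-week livers by the probe without the repeat, against 5.95, 5.27, 6.64 and 6.64 in 8-week livers. Replicates 1 and 2 of the 8-week group were again the lowest. By that probe the log2 difference was 0.34 (SE 0.31, limma adjusted p = 0.628), and the difference of means was -0.18 without 8-week replicates 1 and 2. The brighter probe, which carries the repeat, ranged from 8.69 to 9.44 in 80-week livers and from 8.63 to 9.15 in 8-week livers, with a log2 difference of 0.05 (SE 0.22, limma adjusted p = 0.929).

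Among the regulators, Nr1h4 (FXR) read 3.94, 4.59, 4.68 and 4.74 in 80-week livers, against 4.03, 3.17, 4.58 and 4.27 in 8-week livers. The groups overlapped and 8-week replicate 2 was the lowest. The log2 difference was 0.47 (SE 0.32, limma adjusted p = 0.497), and 0.06 without 8-week replicates 1 and 2. The second Nr1h4 probe, designed on another transcript and placed elsewhere in the gene's region, disagreed in sign, at -0.27 (SE 0.22, limma adjusted p = 0.564), and it gave -0.12 without 8-week replicates 1 and 2. Nr0b2 (SHP), the corepressor that FXR induces, read -1.26, -1.16, -1.67 and 0.08 in 80-week livers, against -1.92, -1.75, -1.21 and -0.06 in 8-week livers. One sample of each age, replicate 4 in both, was higher than the other 3. The log2 difference was 0.23 (SE 0.48, limma adjusted p = 0.837), with an interval of -0.84 to 1.30, and -0.37 without 8-week replicates 1 and 2.

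**Figure D3:**
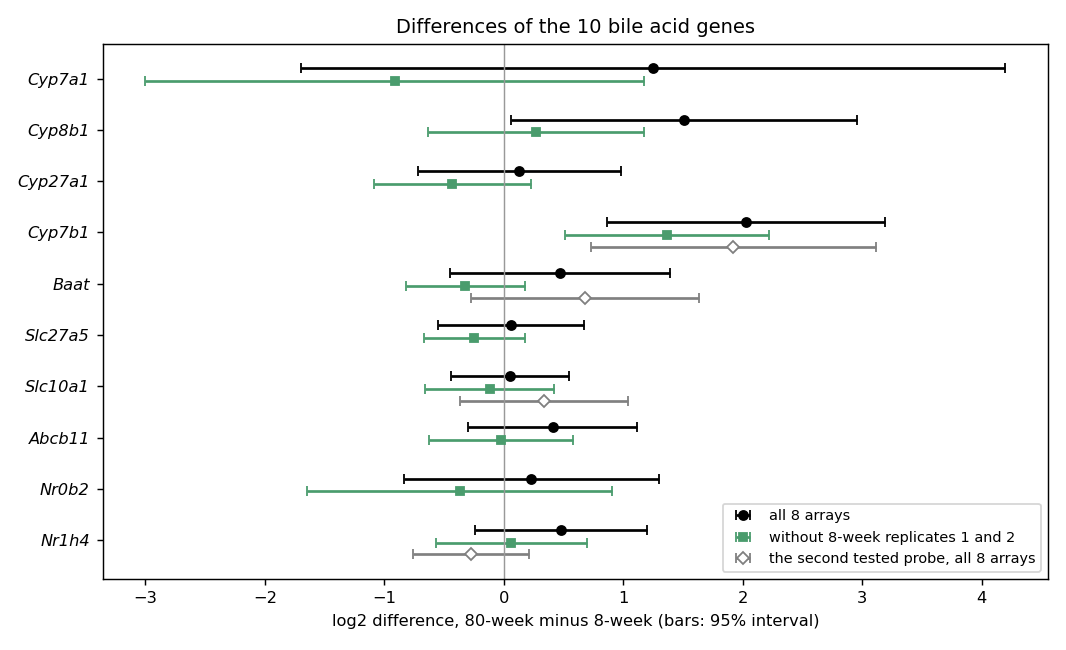
Log2 difference of each bile acid gene, 80-week minus 8-week, with its 95% interval over all 8 arrays (black), without 8-week replicates 1 and 2 (green) and by the gene's second tested probe (open diamonds). The intervals of Cyp7b1 stay above 0 in all 3 sets, with a lowest bound of 0.51 and no adjustment over genes, whereas 7 of the 10 green points lie below 0. Without 8-week replicates 1 and 2, 42.5% of all tested genes had a positive difference.

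Patterns over the 8 arrays were compared by Pearson's r among 12712 tested genes that had a named RefSeq symbol and a value on every array. The genes most like Cyp7a1 were Btd (r = 0.975), Snf8 (r = 0.972), Acot1 (r = 0.971), Ubxn1 (r = 0.970) and Rhoa (r = 0.969). All 5 had their lowest value on the array of 8-week replicate 2, where Cyp7a1 was not above background, and 213 genes reached r above 0.9 with Cyp7a1. Without that array, r for these 5 genes ran from 0.899 to 0.926 over 7 arrays. For Nr0b2 the closest were Ptprk (r = 0.990), Dhodh (r = 0.950), Rbm33 (r = 0.949), Zfp358 (r = 0.932) and Ube2e3 (r = 0.925), all highest in 80-week replicate 4, and 13 genes reached r above 0.9. These are descriptions over 8 arrays that share a slide and a scaling, given without a test.

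Other genes of the pathway showed no call in the main comparison either. Of 17 other synthesis genes, all tested, 15 differences were positive, 0 passed the threshold and the median was 0.52 (-0.09 without 8-week replicates 1 and 2). The most negative difference of that list belonged to Cyp39a1, an oxysterol hydroxylase of a minor route, which read 3.22, 2.51, 2.92 and 2.50 in 80-week livers, against 4.62, 3.80, 5.51 and 5.23 in 8-week livers. Every 80-week value lay below every 8-week value, including those of 8-week replicates 1 and 2. Its log2 difference was -2.01 (SE 0.37, limma adjusted p = 0.0638), and without 8-week replicates 1 and 2 it was -2.59 (limma adjusted p = 0.0456). Cyp39a1 passed the threshold in 7 of 20 alternative settings, with an adjusted p between 0.0016 and 0.231. Cyp7b1 and Cyp39a1, both hydroxylases of oxysterols, thus had differences of opposite sign without overlap, neither past the threshold with all 8 arrays. Cyp39a1 was named for its small p, so its separation follows in part from that choice. Over all tested genes 8.38% did not overlap.

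Akr1c6, an aldo-keto reductase of steroid metabolism, read 7.69, 8.02, 8.89 and 8.94 in 80-week livers, against 6.69, 5.55, 5.99 and 7.21 in 8-week livers. Its groups did not overlap and its log2 difference was 2.03 (SE 0.41, limma adjusted p = 0.0985), and 1.78 without 8-week replicates 1 and 2. Cyp2c70, which makes muricholic acids in mice, differed by 1.24 (limma adjusted p = 0.291) and Acnat2, a peroxisomal acyltransferase, by 1.09 (limma adjusted p = 0.284), with overlapping groups in both, and by 1.02 and 1.03 without 8-week replicates 1 and 2.

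Of 15 other transporters, 13 were tested, 12 differences were positive, 0 passed and the median was 0.32 (0.18 without 8-week replicates 1 and 2). The basolateral bile acid exporter subunits Slc51a and Slc51b were not tested: Slc51a was well above background on 0 of 8 arrays, and Slc51b on 0 of 4 80-week and 2 of 4 8-week arrays. Slco2b1, an organic anion uptake carrier, ranged from 5.04 to 5.24 in 80-week livers and from 3.73 to 4.73 in 8-week livers without overlap (difference 0.93, limma adjusted p = 0.231), and the difference was 0.46 without 8-week replicates 1 and 2. Its second probe differed by -0.01 with overlapping groups, so the probes disagreed. The paired sterol exporters Abcg5 (1.04, limma adjusted p = 0.305) and Abcg8 (1.08, limma adjusted p = 0.32) and the carrier Slco1b2 (1.10, limma adjusted p = 0.338) overlapped between the ages. Their differences without 8-week replicates 1 and 2 were 0.51 for Abcg5, 0.48 for Abcg8 and 0.46 for Slco1b2. Abcb4, the phosphatidylcholine floppase of the canaliculus and an FXR target, ranged from 7.01 to 7.23 in 80-week livers and from 5.03 to 6.95 in 8-week livers (difference 0.93, limma adjusted p = 0.349, and 0.19 without 8-week replicates 1 and 2). Of its other probes, A_52_P223194 did not overlap between the ages (difference of means 1.03) and A_55_P1978696 did (0.91).

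**Figure D4:**
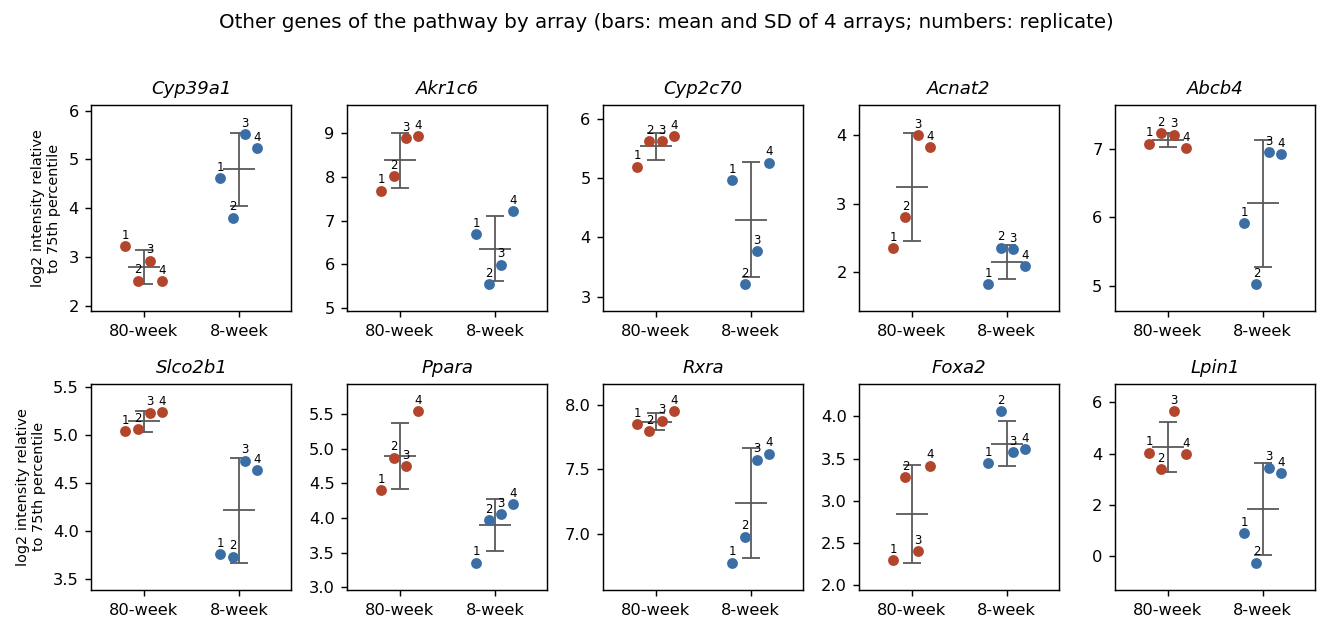
Level of 10 other genes of the pathway on each array (log2 intensity relative to the array's 75th percentile), with 80-week samples on the left and 8-week samples on the right, points numbered by replicate, and bars for the mean and SD of 4 arrays. Cyp39a1 and Foxa2 lie lower in every 80-week sample than in any 8-week sample, and Akr1c6, Abcb4, Slco2b1, Ppara and Rxra lie higher, while Cyp2c70, Acnat2 and Lpin1 overlap. These genes were named for the smallest p in their lists, so separation follows in part from that choice. Over all tested genes the share without overlap was 8.38%. Panels show the brightest probe, and another probe of Abcb4, of Slco2b1 and of Rxra overlapped.

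Among 21 factors that control the pathway, 20 were tested, 13 differences were positive, 0 passed and the median was 0.22 (0.10 without 8-week replicates 1 and 2). Rxra, the partner with which FXR binds DNA, ranged from 7.80 to 7.95 in 80-week livers and from 6.78 to 7.62 in 8-week livers, without overlap (difference 0.63, limma adjusted p = 0.305, and 0.27 without 8-week replicates 1 and 2). Its second probe overlapped between the ages, with a difference of means of 0.70. Ppara, the fatty acid receptor, did not overlap by either of its probes, with a difference of 1.00 (limma adjusted p = 0.227) by the brighter one, and 0.77 without 8-week replicates 1 and 2. Foxa2, a hepatocyte transcription factor that favours bile acid export, ranged from 2.29 to 3.41 in 80-week livers and from 3.45 to 4.07 in 8-week livers, and its log2 difference was -0.83 (limma adjusted p = 0.305, and -0.75 without 8-week replicates 1 and 2). The coactivator Ppargc1a differed by 1.16 (limma adjusted p = 0.329) with overlap, and by 0.76 without the same 2 arrays.

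Of 16 other FXR targets, 13 were tested, 9 differences were positive, 0 passed and the median was 0.20 (-0.15 without 8-week replicates 1 and 2). Lpin1, a phosphatidate phosphatase, had the widest difference of that list at 2.43 (limma adjusted p = 0.291), and it was 0.93 without 8-week replicates 1 and 2. Pltp, the phospholipid transfer protein, differed by 0.76 (limma adjusted p = 0.332), and by 0.57 without those arrays. Of 10 genes of signals that repress Cyp7a1, 9 were tested, 4 differences were positive, 0 passed and the median was -0.01 (-0.16 without 8-week replicates 1 and 2). Fgf15 and Mafg of this list also stand among the other FXR targets, so the lists are not separate. Fgf15, an intestinal hormone among these signals, was well above background on 0 of 8 liver arrays. Its co-receptor Klb differed by 0.99 (limma adjusted p = 0.368), the cytokines Tnf and Il1b by -0.71 (limma adjusted p = 0.326) and -0.61 (limma adjusted p = 0.703), and the kinase Mapk8 by -0.16 (limma adjusted p = 0.666), each with overlapping groups. The differences without 8-week replicates 1 and 2 were 0.24 for Klb, -0.87 for Tnf, -0.08 for Il1b and -0.27 for Mapk8.

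**Figure D5:**
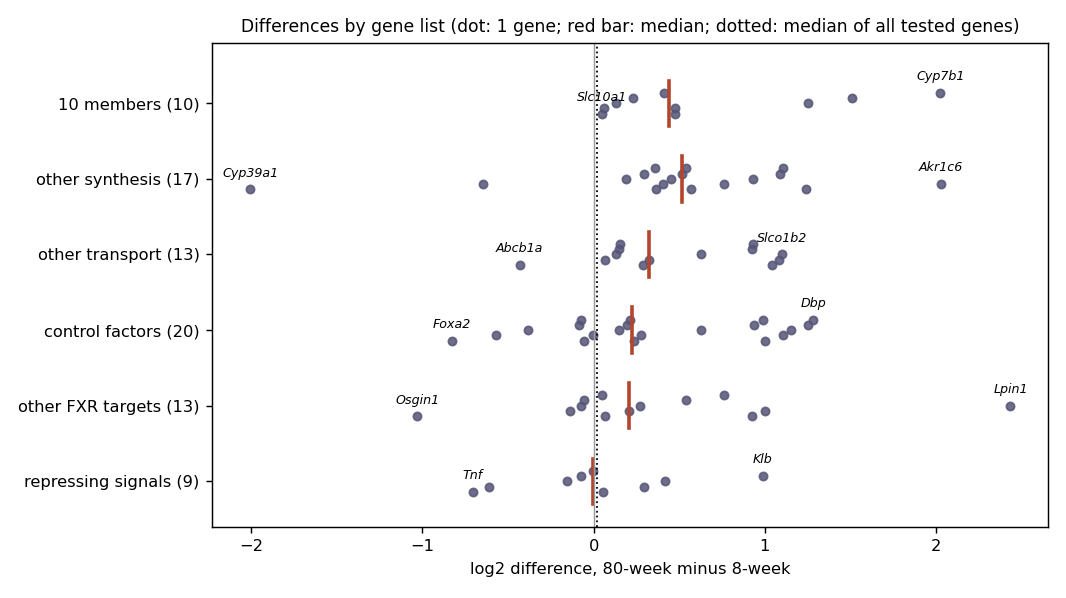
Log2 differences (80-week minus 8-week) of the 10 bile acid genes and of the tested genes of 5 pathway lists, with a dot per gene, a red bar for each list's median and a dotted line for the median of all tested genes at 0.02. The labels mark the lowest and highest gene of each list and so follow from these values, and the medians run from -0.01 for the repressing signals to 0.52 for the other synthesis genes.

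RefSeq promoter windows (GRCm38.p6, 250 bases before to 50 after a start) were given for 6 of the 10 genes, in 7 windows. The nuclear receptor half-site AGGTCA, searched on both strands, occurred at -56 in Abcb11, at -214 in Nr1h4 and at -87 in 1 of the 2 Slc10a1 windows, and 16.3% of all 32851 windows hold it. The E-box CACGTG lay at -195 in Nr0b2 (7.15% of windows). No window of these genes held an exact match to the inverted repeat IR-1, the direct repeat DR-1, CAAGGTCA or TTATGTAA. Their shares of all windows were 0.00913%, 0.0396%, 1.56% and 0.938%. Only exact matches were counted, so a site with a changed base was not seen. Strings this rare are absent from most windows, so their absence here does not show that these promoters lack a receptor site.

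Hepatocyte markers were measured at both ages, with 10 of 10 tested, 0 past the threshold and a median difference of 0.12 (-0.17 without 8-week replicates 1 and 2). The log2 of their summed level ran from 12.21 to 12.92 in 80-week livers and from 11.74 to 12.73 in 8-week livers, lowest in 8-week replicate 2. In whole tissue, fewer cells of a type and less RNA per cell cannot be told apart. Cyp7a1 is known to be made mainly by hepatocytes near the central vein, the zone that acetaminophen injures. Of 12 pericentral markers, 11 were tested and all 11 had positive differences, 1 of them past the threshold, the glutamate transporter Slc1a2 (difference 4.39, SE 0.57, limma adjusted p = 0.0127). Without 8-week replicates 1 and 2 its difference was 4.38 and the call was lost (limma adjusted p = 0.202). The mean log2 level of that list ran from 2.75 to 4.92 in 80-week livers and from 1.07 to 2.24 in 8-week livers, with a median difference of 1.97 (1.25 without 8-week replicates 1 and 2), and its part in the bile acid genes' differences was not tested. Lgr5 and Slc13a3 were each well above background on 1 of 4 8-week arrays, against 3 of 4 and 4 of 4 80-week arrays. Their differences (3.19 and 5.16) are thus not measured folds, and they widen the gap in that mean. Cyp2e1 of the same list differed by 0.07. The 10 periportal markers had a median difference of -0.02, with 5 of 10 positive and 0 past the threshold (-0.53 without 8-week replicates 1 and 2). Monocyte markers, 5 of 6 tested and 0 past the threshold, had their highest mean level in 8-week replicates 1 and 2. Chil3 and F13a1 weighed most in this. Chil3 read 4.01 and 5.70 on those arrays, against -0.84 to 0.55 in 80-week livers. F13a1 read 1.14 and 2.76 there, against -4.15 to -2.71 in 80-week livers. F13a1 was well above background on 1 of 4 80-week arrays. Lyz2 was highest in 80-week replicate 1, at 6.92. The list was not uniform: 4 differences were negative, widest in Chil3 (-3.73) and F13a1 (-3.23), and Lyz2 went the other way (0.23). The mean log2 level of the list ran from 1.14 to 1.73 in 80-week livers. It was 3.26, 4.24, 2.15 and 1.90 in 8-week replicates 1 to 4, and its part in the results was not tested.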

How the data were processed

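The scanner files hold spot intensity values, which Feature Extraction 10.7.3.1 had corrected for background before deposit, per the file headers. The submitters' processing notes give version 9.1 of that software. The table of intensity values that the authors deposited agreed to within 1% with the processed signal of the scanner files for 100% of 59305 non-control spots per array (column medians 17.4 to 34.9), so it carried no scaling between arrays and served as an alternative. It held 0 columns not mapped to a sample.

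Spots marked as outliers (59 to 97 per array) were left out, and the log2 values of repeated spots were averaged per probe. From these the 75th percentile of the array (154.7 to 352.8 intensity units) was subtracted. A probe was tested when well above background on at least 4 of 8 arrays, and a gene stood by its brightest tested probe. The ages were compared by limma 3.58.1 (R 4.3.3) over 17565 genes, of which 13828 matched a RefSeq symbol. The number of arrays limits the precision. On simulated data for this comparison over 17565 genes, 24%, 80%, 92% and 98% of 50 genes changed 2-, 4-, 8- and 16-fold were recovered, and 3 of 17365 unchanged genes were called.

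The members, the gene lists and the tests were chosen with earlier results of these data known. Named pathway genes are the 4 with the smallest unadjusted p in each list, besides any past the threshold. The labels do not say whether replicate numbers pair the samples, which were compared as unpaired. Deviations of same-numbered samples correlated at 0.03, 0.14, 0.11 and 0.10, which does not settle whether they were paired. The alternatives were quantile and median scaling, normexp (offset 50), array weights, a trended and robust variance prior, averaging the probes of a gene, 2 other filters on dim probes, the replicate block, outlier spots kept, the deposited table, and the omission of each array or of 8-week replicates 1 and 2. Reading Slc10a1 from its other probe and leaving 8-week replicate 2 out of the search for like patterns were added after the data were seen.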

Additional observations from a re-analysis of the deposited data

Results flagged for a closer look

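In a search for a sample far from the other 3 of its age (by Dixon's ratio of the gap to the nearest over the group's range), made over 29 genes in 58 groups, 2 groups stood out (3.45%), where chance gives about 5%. Cyp2c70 read 5.20 in 80-week replicate 1, against 5.63 to 5.71 in the other 3 80-week livers. Ppargc1a read 0.48 in 8-week replicate 2, against 2.03 to 2.24 in the other 3 8-week livers, on the array that was also lowest for 9 of the 10 bile acid genes.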

How the results depend on the processing

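Over 20 alternatives, 0 of the 10 bile acid genes passed the threshold in any setting. Of 199 values of these genes, 175 kept their sign and 24 changed it, and the differences of Cyp7b1, Cyp8b1 and Nr1h4 stayed positive in all 20. Cyp7b1 ran from 1.37 to 2.31, with an adjusted p from 0.0761 to 0.4. With array weights, which gave 8-week replicates 1 and 2 weights of 0.436 and 0.181, the difference was -0.23 for Cyp7a1, -0.24 for Cyp27a1, -0.11 for Baat, -0.22 for Slc27a5, -0.13 for Slc10a1 and -0.20 for Nr0b2. Without 8-week replicates 1 and 2 it was -0.91 for Cyp7a1, -0.43 for Cyp27a1, -0.32 for Baat, -0.25 for Slc27a5, -0.12 for Slc10a1, -0.0225 for Abcb11 and -0.37 for Nr0b2. Median scaling gave -0.0422 for Slc27a5 and -0.0542 for Slc10a1, and quantile scaling -0.00697 for Slc10a1. With each array left out in turn, Cyp7a1 ran from -0.0796 to 2.03, Cyp27a1 from -0.23 to 0.38, Slc27a5 from -0.20 to 0.19, Slc10a1 from -0.0835 to 0.17 and Nr0b2 from -0.13 to 0.62. The lowest values of Cyp7a1, Cyp27a1 and Slc27a5 came without 8-week replicate 2, that of Slc10a1 without 80-week replicate 1 and that of Nr0b2 without 80-week replicate 4. The median of the 10 genes ran from 0.10 to 0.60 with each array left out, and it was -0.12 with array weights and -0.18 without 8-week replicates 1 and 2. Read from its other probe, Slc10a1 gave 0.34 and left the median at 0.44. With signal required on all 8 arrays Cyp7a1 had no value, since 8-week replicate 2 lacked signal. Of 380 values of the 19 named pathway genes, 373 kept sign and side of the threshold and 7, all of Cyp39a1, passed it.

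Over all tested genes, 58 passed the threshold as higher and 5 as lower. The counts of genes higher and lower ran from 25 to 69 and from 2 to 14 with each array left out, and were 12 and 2 without 8-week replicates 1 and 2, 136 and 36 with array weights, and 20 and 1 with signal required on all arrays. Lower genes numbered 8 with quantile scaling, 13 with median scaling, 8 with no filter, 9 with the mean of a gene's probes and 8 with the trended and robust prior. With the replicate number as a block, 53 genes were higher and 17 lower, and it changed no call among the 10 genes. The cause of these changes was not tested. Signal over background limited Cyp7a1 in 8-week replicate 2.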

Other observations

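Markers of other cell types, of the liver and of other tissues, were measured beside the bile acid genes. Of 7 cholangiocyte markers, the cells that line bile ducts, 3 were tested, and Krt7, Krt19, Epcam and Cftr were not well above background on enough arrays. Tff3, a secreted trefoil peptide, read -2.18 to -3.23 in 80-week livers and -0.65 to 0.05 in 8-week livers, a log2 difference of -2.56 (SE 0.27, limma adjusted p = 0.00496). Without 8-week replicates 1 and 2 the difference was -2.62 and the call was lost (limma adjusted p = 0.0868). Tff3 was well above background on 2 of 4 80-week and 4 of 4 8-week arrays, so the size of its difference is not a measured fold. Of 2 tested B cell and plasma cell markers, 1 passed the threshold: Jchain, the joining chain of polymeric antibodies, had a log2 difference of 5.41 (SE 0.70, limma adjusted p = 0.0127) and was well above background on 4 of 4 80-week and 1 of 4 8-week arrays. The size of that difference is thus not a measured fold, and the call was lost without 8-week replicates 1 and 2 (limma adjusted p = 0.112).

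No marker passed the threshold in the other lists. The median differences were 0.38 for 6 Kupffer cell markers, -0.41 for 5 monocyte, -0.36 for 6 neutrophil, -0.18 for 6 endothelial and 0.00 for 6 stellate cell markers. They were 0.69 for 2 T and NK cell, 0.17 for 4 adipocyte, -0.03 for 3 enterocyte and 0.88 for 2 pancreatic acinar markers. Of the enterocyte list 3 genes were not tested, among them Fabp6 and Vil1, and of the acinar list 3, Prss2, Cpa1 and Pnlip. The medians of those lists therefore do not show that such cells were present.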
